A study of Mus musculus with 11 samples.

Results

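The genes described here are those whose deposited start and stop lie more than 300 kb apart on the mouse genome, introns included, and they are called long genes below. Of the 18269 genes in the expression tables, 404 met this rule, and 274 of them passed the filter of 1 CPM or more (reads scaled to 1000000 per library) in 3 or more libraries, among 13187 genes that passed in all. Dmd and genes with symbols starting Kcn, Pcdh, Col, Vps, Rab, Itg or Lam (20 genes, of which 11 passed the filter) are not part of the set. No expression value entered the span rule. The filter did use expression, so the 130 long genes below it are not described.

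RNA had been sequenced from the tibialis anterior, a shin muscle built largely of fast fibres, of C57BL/6 mice aged 21 to 24 months. All libraries came from an animal injury model, per the labels. One group of mice had received saline (4 libraries), one young serum (4 libraries), and one young serum from which extracellular vesicles (EVs), the membrane-bound particles that cells release, had been depleted (3 libraries). The labels do not say that each library is a separate animal, so p-values here reflect only how far these samples scatter, and that scatter may be technical. The comparisons address whether young serum changes gene expression in aged muscle and whether EV depletion changes that difference. No transgene is named, and the kind of injury, the time after it and the serum dose are not given in the sources used here.

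Genes of this size consist almost wholly of introns, and RNA polymerase needs far longer to cross them than an average gene. Many encode proteins of neurons and muscle: giant linkers between cytoskeleton and nucleus or membrane, ion channels, adhesion receptors, phosphodiesterases and transcription factors with many alternative promoters. Several of the longest overlap common fragile sites, where chromosomes break under replication stress.

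Long span went with a long exonic length. That length joins the exons of all transcripts of a gene, so it need not equal the length of any RNA. The exonic length of the long genes, the union of their exons in GENCODE M21, had a median of 10.3 kb (range 1.57 to 41.2 kb, 273 genes), against 4.29 kb over all tested genes with an annotated length. Exons made up a median of 2.11% of the span of a long gene and 20.4% of the span of a tested gene. Their mean CPM had a median of 8.11, against 12.7 over all tested genes. By biotype 267 were protein coding and 6 noncoding. Pam, Cacna1a and Stk3 lay just above the threshold (300.5, 301.6 and 303.4 kb), and Klhl29, AW554918 and Akap13 just below it (298.2, 298.3 and 299.1 kb). The log2 differences between young serum and saline were 0.23, -0.12 and -0.13 for the first 3 and 0.72, 0.14 and 0.54 for the last 3.

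Some deposited spans were larger than the annotated gene. Galnt2l had the longest, 4435 kb (chr8:119910841-124345722, mm10), had no GENCODE entry, and covered 59 other tested genes, among them the skeletal actin gene Acta1 (mean 32148 CPM). Its own value cannot be told apart from reads of those genes. Xirp2 started at position 67173834 of chromosome 2 in the table and at 67446002 in GENCODE. Cacna1a started at 84338639 of chromosome 8 in the table and at 84388440 in GENCODE. Over the set, 265 of 273 genes had the same start and end in both sources, 49 overlapped another tested gene, and 25 overlapped one with a higher mean CPM. By the GENCODE span, 271 genes lay over 300 kb.

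Promoter sequence of RefSeq (GRCm38.p6, the assembly of mm10, 250 bases before to 50 bases after a start) was matched by symbol for 209 of the 274 long genes, with 334 windows. The windows below are shown because the genes recur in the results and because they range from CpG-rich to CpG-poor. Prkg1 is shown at 2 of its starts, and the Xirp2 window lies at the GENCODE start, far inside the deposited span. A window describes only the start shown, and a gene such as Pde4d may have other starts. Capitals mark the GC box GGGCGG and the E-box CAGCTG on either strand.
Kif26b, chr1:178528875-178529174, plus strand: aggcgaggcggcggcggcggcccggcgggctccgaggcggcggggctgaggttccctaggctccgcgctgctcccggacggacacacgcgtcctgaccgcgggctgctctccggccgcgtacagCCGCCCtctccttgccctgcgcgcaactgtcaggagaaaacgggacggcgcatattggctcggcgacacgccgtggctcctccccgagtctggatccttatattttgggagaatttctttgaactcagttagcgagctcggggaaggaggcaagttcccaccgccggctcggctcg
Prkg1, chr19:31764984-31765283, minus strand: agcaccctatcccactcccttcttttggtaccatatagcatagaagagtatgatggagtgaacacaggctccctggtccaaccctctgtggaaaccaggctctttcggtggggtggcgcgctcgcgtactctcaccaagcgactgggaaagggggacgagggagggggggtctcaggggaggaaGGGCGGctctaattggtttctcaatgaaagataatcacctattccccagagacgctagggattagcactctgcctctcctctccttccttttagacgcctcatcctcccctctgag
Prkg1, chr19:31664321-31664620, minus strand: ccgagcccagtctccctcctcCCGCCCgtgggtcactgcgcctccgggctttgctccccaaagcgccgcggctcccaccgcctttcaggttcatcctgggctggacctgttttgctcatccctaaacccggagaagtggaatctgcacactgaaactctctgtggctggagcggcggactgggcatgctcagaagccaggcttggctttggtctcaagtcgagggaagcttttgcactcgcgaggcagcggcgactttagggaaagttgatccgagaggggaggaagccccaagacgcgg
Pde4d, chr13:108653927-108654226, plus strand: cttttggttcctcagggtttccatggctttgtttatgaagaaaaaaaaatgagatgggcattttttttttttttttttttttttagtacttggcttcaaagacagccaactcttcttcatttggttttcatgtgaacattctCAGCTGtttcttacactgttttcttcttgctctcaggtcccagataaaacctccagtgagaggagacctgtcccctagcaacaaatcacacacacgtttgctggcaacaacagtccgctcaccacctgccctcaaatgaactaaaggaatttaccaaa
Xirp2, chr2:67445752-67446051, plus strand: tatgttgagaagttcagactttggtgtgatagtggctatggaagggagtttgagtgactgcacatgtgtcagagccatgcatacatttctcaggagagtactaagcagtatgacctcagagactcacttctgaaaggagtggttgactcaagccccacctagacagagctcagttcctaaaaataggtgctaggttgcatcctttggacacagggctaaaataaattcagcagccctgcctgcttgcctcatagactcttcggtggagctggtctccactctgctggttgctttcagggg
Cacna2d1, chr5:15934441-15934740, plus strand: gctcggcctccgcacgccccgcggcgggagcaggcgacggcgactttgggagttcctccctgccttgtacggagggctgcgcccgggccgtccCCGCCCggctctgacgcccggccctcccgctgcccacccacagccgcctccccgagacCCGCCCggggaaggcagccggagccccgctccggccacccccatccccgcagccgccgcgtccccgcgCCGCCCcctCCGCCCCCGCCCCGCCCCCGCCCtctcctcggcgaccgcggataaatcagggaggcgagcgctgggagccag
The windows held 38 CpGs in Kif26b, 10 and 20 in the Prkg1 windows, 2 in Pde4d, 1 in Xirp2 and 42 in Cacna2d1, which also had 7 GC boxes. Over all 334 windows of long genes, the median was 14 CpGs, against 20 in windows of the genes tested and 7 in every window of the table. A GC box was present in 47.6% of the long genes' windows, against 61.7% of windows of the genes tested and 35.7% of all windows. The E-box was present in 18.9%, 15.8% and 16.3%, the TATA sequence TATAAA in 8.98%, 7.54% and 13.6%, and CCAAT in 34.7%, 37.3% and 37.4%. These are matches of letters in a window on both strands, not sites of binding.

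The long genes took a small and variable share of the library. They summed to 0.789%, 0.602%, 0.712% and 0.497% of all CPM in saline replicates 2, 3, 4 and 6. In young serum replicates 1 to 4 the share was 0.905%, 0.936%, 0.819% and 0.914%, all above the saline libraries. In EV-depleted replicates 2, 3 and 4 it was 0.869%, 0.678% and 1.097%, with 1 of 3 inside the saline range. The group means were 0.650% ± 0.127 (SD, n = 4), 0.893% ± 0.051 (n = 4) and 0.881% ± 0.210 (n = 3). Depth was alike in all libraries (36.4 to 42.3 times 1e+06 reads, read from the steps of low CPM values).

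**Figure D1:**
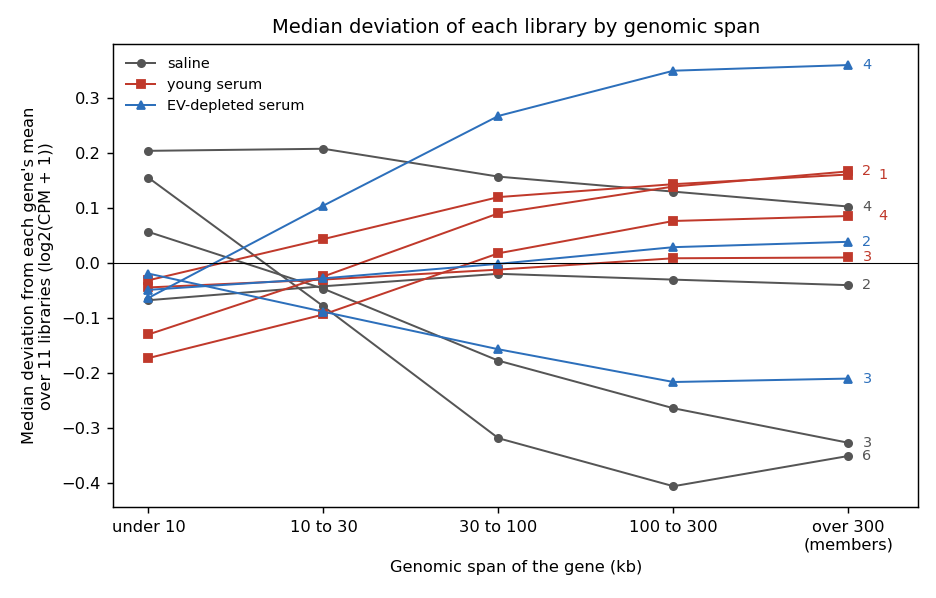
Median deviation of each library (y axis, log2(CPM + 1) minus the gene's mean over the 11 libraries) in 5 classes of genomic span (x axis, kb), with each line a library, coloured by group and numbered by replicate. At over 300 kb the values run from -0.35 in saline replicate 6 to 0.36 in EV-depleted replicate 4, and the young serum libraries lie between 0.01 and 0.17.

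Single libraries set the extremes. Of the 274 long genes, 115 (42.0%) had their lowest value in saline replicate 6 and 62 (22.6%) in saline replicate 3. Their highest value was in EV-depleted replicate 4 for 115 (42.0%) and in saline replicate 4 for 73 (26.6%). The plot of library medians by span shows saline replicates 6 and 3 lowest and EV-depleted replicate 4 highest among genes of 100 to 300 kb too. Over all tested genes, saline replicates 6 and 3 were lowest for 32.5% and 9.31%. EV-depleted replicate 4 was highest for 25.8% of tested genes. Saline replicate 4 was highest for 33.8% of them, a larger share than among long genes. A pair of saline libraries stood apart in markers of other cells. The 6 adipocyte markers summed to 5496 CPM in replicate 4, against 99.5 to 500 in the other 10 libraries, and the 6 slow fibre markers to 3953 CPM in replicate 6, against 165 to 1579. Macrophage markers summed to 617 and 324 CPM in replicates 4 and 6, against 59.9 to 192 in the others, and red cell markers to 1488 CPM in replicate 6, against 89.1 to 468. Their part in the differences from saline was not tested; the counts without both libraries are given below. The 6 fast fibre markers of the labelled muscle summed to 119214 to 156449 CPM, and none of the marker genes examined was at 0. In bulk tissue, fewer cells of a type and less RNA per cell cannot be told apart.

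In muscle given young serum, long genes were mostly higher than in saline, by a modest amount each. The median log2 difference over the 274 was 0.22 (quartiles -0.01 and 0.47), and 202 were higher, whereas the other 12913 tested genes had a median of -0.03. No long gene passed an adjusted p of 0.05 in limma, nor did any tested gene (0%). At an unadjusted p under 0.05, 76 long genes (27.7%) were higher, against 10.5% of all tested genes, and 3 (1.09%) were lower, against 11.4%. All 4 young serum libraries lay above all 4 saline libraries for 44 long genes (16.1%), against 6.09% of tested genes, and below them for 2, Cmss1 and Fggy, against 6.08%. Fggy, a carbohydrate kinase gene, is named after its values were seen, and its unadjusted p was over 0.05. The count of 76 fell to 49 without saline replicate 3 and was 49 without saline replicates 4 and 6 together. These were 17.9% and 18.0% of long genes, against 6.91% and 6.33% of tested genes. Without saline replicate 4 the median was 0.33 (0.07 over all tested genes). Without saline replicate 2, 9 long genes passed the adjusted p, as did 253 of 13164 tested genes.

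EV-depleted serum gave a similar picture with fewer genes at the unadjusted threshold. The median log2 difference from saline was 0.20 (quartiles 0.00 and 0.39), and 207 of 274 were higher, against a median of -0.01 over the others. None passed an adjusted p of 0.05 in limma (0% of tested genes). At an unadjusted p under 0.05, 45 (16.4%) were higher, against 6.49% of tested genes, and 0 were lower, against 5.59%. Non-overlapping groups were found for 10 long genes (3.65%) with the EV-depleted libraries higher, against 3.39% of tested genes, and for 0 with them lower, against 4.03%. The count of 45 depended on single libraries, as did the share of all tested genes. It was 16 (5.90%, against 2.38% of tested genes) without EV-depleted replicate 4 and 76 (27.8%, against 11.2%) without EV-depleted replicate 3. It was 27 (9.89%, against 3.70%) without saline replicate 3 and 29 (10.6%, against 4.35%) without saline replicate 6. The median was 0.06 without EV-depleted replicate 4, 0.34 without EV-depleted replicate 3 and 0.12 without saline replicate 6. Over all tested genes the medians of these fits were -0.06, 0.05 and -0.03. The 2 comparisons share the 4 saline libraries.

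The sera were also compared with each other, which uses no saline library. The median log2 difference of young minus EV-depleted serum was 0.05, with 174 of 274 higher, against a median of -0.005 over all tested genes. No gene passed an adjusted p of 0.05 in limma (0%). At an unadjusted p under 0.05, 3 long genes were higher with young serum, against 0.478% of tested genes, and 7 were lower, against 1.75%. The young libraries lay wholly above the EV-depleted ones for 3 long genes (background 1.96%) and wholly below for 10 (background 4.16%). The 3 were Bcas3, Rere and Snd1, the first and last of them named after their values were seen. The median of long genes turned to -0.10 without EV-depleted replicate 3 (-0.07 over all tested genes). It was 0.20 without EV-depleted replicate 4 (0.06 over all tested genes). Leaving out young serum replicate 1 or 2 gave 0.03 each, and leaving out replicate 3 gave 0.08.

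The size of the differences was graded by span and was not particular to genes over 300 kb. For young serum against saline, the median log2 difference was -0.22 for genes under 10 kb, -0.06 for 10 to 30 kb, 0.12 for 30 to 100 kb, 0.20 for 100 to 300 kb and 0.22 for the long genes. For EV-depleted serum the same classes had -0.17, -0.03, 0.12, 0.19 and 0.20. Of the 1389 genes of 100 to 300 kb, 24.98% were higher with young serum at an unadjusted p under 0.05 and 14.6% with EV-depleted serum. Among the long genes, the shortest-span 92 had a median of 0.21 with young serum, the middle 91 had 0.28 and the longest 91 had 0.18. The medians inside the set therefore did not follow the order of span.

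**Figure D2:**
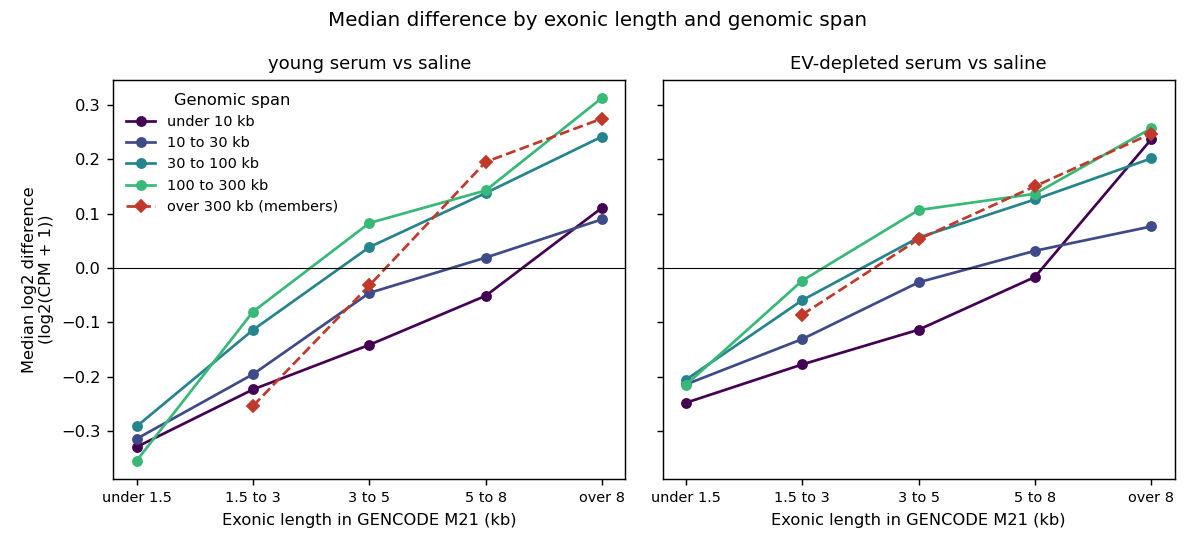
Median log2 difference from saline (y axis, log2(CPM + 1)) for genes in 5 classes of exonic length (x axis, kb), with a line for each class of genomic span and young serum on the left, EV-depleted serum on the right. In both panels every line is higher at over 8 kb than at its shortest class, and the long genes reach 0.28 and 0.25 there.

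Among the long genes the medians followed the order of exonic length, in fixed classes of unequal size. The 187 with over 8 kb of exon had a median log2 difference of 0.28 with young serum, and 149 of them were higher than saline. The 56 with 5 to 8 kb had 0.20. The 23 with 3 to 5 kb had -0.03, with 11 higher. All 7 with 1.5 to 3 kb were lower, with a median of -0.25. With EV-depleted serum, the medians of the same classes were 0.25, 0.15, 0.05 and -0.09. Shorter-span genes of equal exonic length followed the same order: at 1.5 to 3 kb of exon, the 1418 genes spanning under 10 kb had a median of -0.22 with young serum. At a fixed exonic length of 3 to 5 kb, the median with young serum was -0.14 for spans under 10 kb, -0.05 for 10 to 30 kb, 0.04 for 30 to 100 kb and 0.08 for 100 to 300 kb.

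When a smooth trend of the log2 values on exonic length was removed from each library, a setting chosen after seeing the data, the median of the long genes was -0.01 with young serum and 0.00 with EV-depleted serum. The young serum count was then 42 higher (15.4%, against 11.2% of tested genes) and 25 lower. Of the 76 long genes that were higher before, 40 were among these 42. With EV-depleted serum 28 were higher (10.3%, against 7.70%) and 16 lower, and 23 of the 45 were among the 28. Removing a trend on span gave medians of -0.04 and -0.03. With young serum 35 long genes were then higher (12.8%, against 11.8% of tested genes) and 35 lower, and with EV-depleted serum 24 were higher (8.76%, against 7.56%) and 23 lower. The long genes are defined by span, so removing a trend on span moves their median towards 0 by construction. These counts therefore decide nothing about the excess of higher over lower genes. The share of all tested genes lower after trend removal is not given here or below. Counts of lower genes in these fits therefore have no background. What lies behind the relation with exonic length was not tested.

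**Figure D3:**
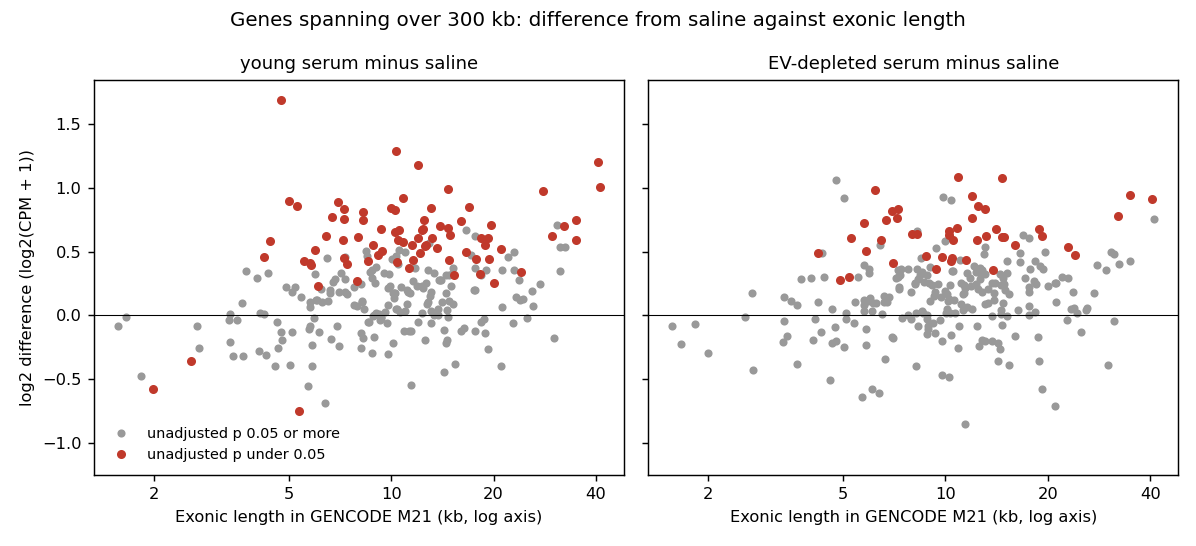
Log2 difference from saline (y axis, log2(CPM + 1)) of the 273 long genes with an annotated exonic length (x axis, kb, log axis), with young serum on the left and EV-depleted serum on the right; red points have an unadjusted limma p under 0.05. The 7 genes under 3 kb of exon all lie below 0 with young serum, and most red points lie above 0 and right of 5 kb.

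Adjusted p-values below are from limma over all tested genes. Unless a sentence says otherwise, a difference given with an adjusted p was also at an unadjusted p under 0.05, here called the unadjusted threshold. For the counts by group, 10.5% of tested genes were higher at that threshold with young serum and 6.49% with EV-depleted serum. The groups were made by hand and are described, not tested. Grouped by what their proteins do, 27 long genes of the cytoskeleton, sarcomere and membrane scaffold had the highest median: 0.59 with young serum, with 26 of 27 higher and 15 at an unadjusted p under 0.05, and 0.45 with EV-depleted serum, with 23 higher and 10 at that threshold. They also had the longest exonic length of the groups, with a median of 14.7 kb. After removal of the exonic length trend their medians were 0.18 and 0.11, with 8 and 7 higher and 0 lower at an unadjusted p under 0.05.

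Dst encodes dystonin, a giant linker of actin, microtubules and intermediate filaments. It stood at 347, 235, 292 and 124 CPM in saline, at 471, 564, 372 and 487 CPM in young serum, and at 399, 248 and 620 CPM in EV-depleted serum. Every young serum library lay above every saline library, whereas 1 EV-depleted library lay within the saline range. The log2 difference was 1.004 ± 0.32 (SE) for young serum (limma adjusted p = 0.180) and 0.76 ± 0.35 for EV-depleted serum, which did not reach the unadjusted threshold (adjusted p = 0.413). Syne1 encodes nesprin-1, which ties the nucleus of the fibre to the cytoskeleton. Its CPM was 58.0, 35.1, 52.9 and 17.6 in saline, 102, 84.2, 64.6 and 104 in young serum, and 60.1, 46.2 and 129 in EV-depleted serum. The young serum libraries again lay above all saline ones, with a log2 difference of 1.21 ± 0.38 (adjusted p = 0.180), and the EV-depleted difference was 0.92 ± 0.41 (adjusted p = 0.412). The latter was 0.57 when saline replicate 6 was left out and 0.49 when EV-depleted replicate 4 was. With the exonic length trend removed, the young serum difference was 0.40 for Dst and 0.60 for Syne1, both at an unadjusted p under 0.05.

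Sorbs2 encodes an adaptor of the Z-disc and of adhesion sites. It had 65.5, 58.6, 67.4 and 38.6 CPM in saline, 126, 99.0, 86.8 and 142 with young serum and 72.7, 56.2 and 101 in EV-depleted serum. Young serum lay above saline in every library (0.97 ± 0.23, adjusted p = 0.180). Sorbs2 was also higher with young than with EV-depleted serum at the unadjusted threshold (0.58 ± 0.24, adjusted p = 1), although those groups overlapped and the difference was 0.38 without EV-depleted replicate 3. Kif26b encodes a kinesin-family protein and was scarce: 1.52, 1.22, 1.58 and 0.78 CPM in saline, 3.59, 3.27, 2.27 and 5.24 with young serum, and 3.23, 2.78 and 5.69 in EV-depleted serum. Both serum groups lay above saline without overlap. The log2 differences were 0.99 ± 0.24 (adjusted p = 0.180) and 1.08 ± 0.26 (adjusted p = 0.304), and they were 0.65 and 0.80 with the exonic length trend removed.

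The ankyrins, which anchor membrane proteins to spectrin, were higher in part. Ank2 had 42.4, 23.2, 23.3 and 19.5 CPM in saline, 34.4, 66.7, 40.2 and 41.5 with young serum and 58.7, 34.2 and 64.7 in EV-depleted serum. Its differences were 0.75 ± 0.28 (adjusted p = 0.185) and 0.94 ± 0.30 (adjusted p = 0.391), with saline replicate 2 inside both serum ranges. Without saline replicates 4 and 6, the young serum difference was 0.48 for Ank2 and 0.34 for Ank3. Ank3 differed by 0.59 ± 0.20 with young serum (adjusted p = 0.180) and 0.43 ± 0.22 with EV-depleted serum, the latter short of the unadjusted threshold (adjusted p = 0.426). Macf1, the other spectraplakin beside Dst, ranged from 28.6 to 70.0 CPM in saline and 56.7 to 79.9 in young serum, a difference of 0.54 ± 0.31 that did not reach the unadjusted threshold (adjusted p = 0.306). Sgcd, a sarcoglycan of the dystrophin complex, stood at 6.93, 3.91, 5.51 and 4.91 CPM in saline and 10.9, 13.2, 7.23 and 9.38 in young serum, without overlap (0.82 ± 0.30, adjusted p = 0.185). Utrn, the gene of the dystrophin relative utrophin, had 39.5 CPM in saline replicate 4 and 11.2 to 17.8 in the other saline libraries, and its difference of 0.48 ± 0.38 did not reach the unadjusted threshold (adjusted p = 0.457).

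Xirp2 encodes a protein of the intercalated disc and Z-disc periphery, and its deposited span starts before the GENCODE gene, as given above. By the deposited span it was the most abundant long gene per kb of exon (129 CPM per kb of mean level, against 60.5 for Trdn, 35.1 for Rbfox1 and 26.0 for Cacna2d1). It had 1497, 1126, 1095 and 796 CPM in saline, 1583, 1726, 1747 and 1669 with young serum, and 2126, 1343 and 2306 in EV-depleted serum. All young serum libraries lay above saline, while EV-depleted replicate 3 lay inside the saline range. The log2 differences were 0.61 ± 0.20 (adjusted p = 0.180) and 0.77 ± 0.22 (adjusted p = 0.360), and the first was 0.37 without saline replicates 4 and 6. Without Xirp2, the share of all CPM taken by the long genes was 0.537%, 0.725% and 0.689% in saline, young and EV-depleted serum.

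**Figure D4:**
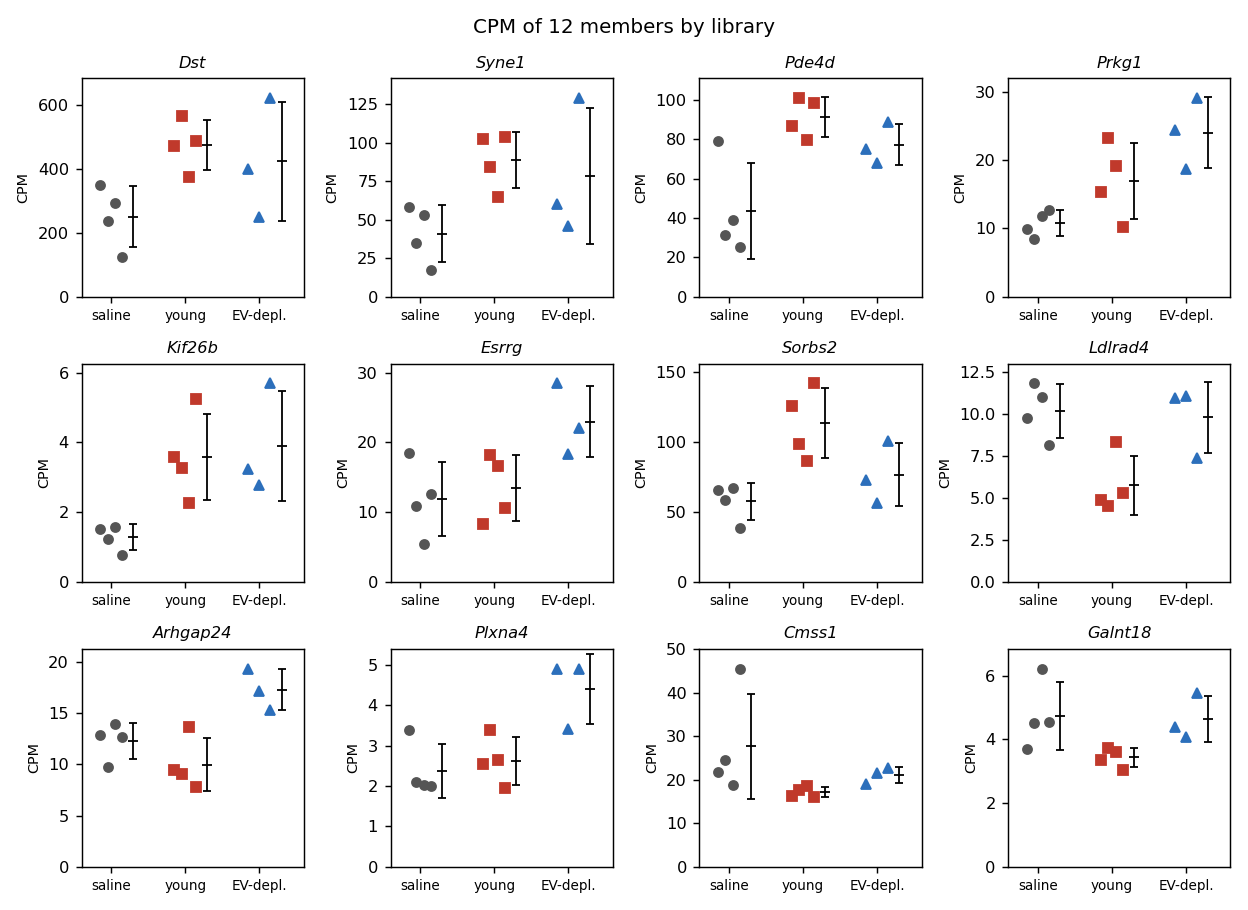
CPM (y axis) of 12 long genes in each library, with saline as circles, young serum as squares and EV-depleted serum as triangles; bars beside the points give mean ± SD (n = 4, 4 and 3). Kif26b lies between 0.78 and 1.58 CPM in saline and between 2.27 and 5.69 in both sera, whereas Ldlrad4 is lowest in young serum (4.499 to 8.33 CPM) and Arhgap24 highest in EV-depleted serum (15.4 to 19.4 CPM).

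Of the 14 long genes for ion channels, exchangers and calcium release, 10 were higher with young serum (median 0.20, 4 at an unadjusted p under 0.05) and 11 with EV-depleted serum (median 0.18, 3 at that threshold). After removal of that trend on exonic length, the medians were -0.07 and 0.03. Trdn, for triadin of the sarcoplasmic reticulum junction, had 561, 356, 337 and 422 CPM in saline, 765, 751, 511 and 637 with young serum and 523, 425 and 939 in EV-depleted serum. Saline replicate 2 lay inside the young serum range, and the difference was 0.68 ± 0.24 (adjusted p = 0.182). Cacna2d1, the auxiliary subunit of the muscle calcium channel, had 362, 234, 248 and 138 CPM in saline and 389.9, 391.8, 329 and 383 in young serum, with saline replicate 2 inside that range (0.68 ± 0.25, adjusted p = 0.185). Without saline replicate 6 its difference was 0.43. Slc8a1, a sodium-calcium exchanger, had 22.2, 18.5, 13.1 and 9.1996 CPM in saline and 23.9, 23.5 and 26.4 in EV-depleted serum, without overlap (0.68 ± 0.25, adjusted p = 0.404). Without saline replicates 4 and 6 that difference was 0.27. Ryr3, a ryanodine receptor, stayed between 0.66 and 4.077 CPM in all libraries and reached the unadjusted threshold against saline with neither serum (adjusted p = 0.551 and 0.618).

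Second messengers and kinases formed the group with the next-highest medians, 0.36 with both sera, with 9 of 23 (39.1%) higher at an unadjusted p under 0.05 in each. Trend removal left medians of 0.04 and 0.11, with 6 higher and 2 lower at that threshold in each. Pde4d encodes a phosphodiesterase that breaks down cAMP. It had 79.2, 31.4, 38.8 and 25.1 CPM in saline, 86.6, 101, 79.4 and 98.2 with young serum, and 74.95, 68.1 and 88.6 in EV-depleted serum. Young serum lay above saline throughout, if narrowly above saline replicate 2 (1.18 ± 0.28, adjusted p = 0.180). EV-depleted serum differed by 0.94 ± 0.30 (adjusted p = 0.391), and by 0.61 without saline replicates 4 and 6. Prkg1, the cGMP-dependent kinase whose promoter windows are printed above, had 9.94, 8.45, 11.7 and 12.7 CPM in saline, 15.3, 23.3, 19.2 and 10.2 with young serum and 24.4, 18.7 and 29.1 in EV-depleted serum. Its EV-depleted libraries lay above all saline ones (1.09 ± 0.25, adjusted p = 0.291, the lowest adjusted p among long genes in that comparison). The young serum difference was 0.58 ± 0.23 (adjusted p = 0.198). Inpp4b, an inositol phosphatase, was level with saline under young serum (0.04 ± 0.34) and lower in young than in EV-depleted serum (-0.80 ± 0.36, adjusted p = 1), with overlapping groups and a difference of -0.52 without EV-depleted replicate 4.

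Transcription factors and chromatin proteins made up the largest group, 48 genes, with medians of 0.26 and 0.24. With young serum 37 were higher and 15 passed the unadjusted threshold, and with EV-depleted serum 38 and 9. Their medians were 0.03 and 0.00 with the exonic length trend removed, with 8 and 4 higher and 5 and 2 lower at that threshold. Rora, a nuclear receptor of the clock, had 98.3, 67.8, 66.5 and 44.2 CPM in saline, 140, 113, 98.0 and 134 with young serum and 84.0, 83.5 and 131 in EV-depleted serum. Saline replicate 2 was just above the lowest young serum library (0.84 ± 0.23, adjusted p = 0.180), and the difference was 0.55 without saline replicates 4 and 6. Gse1, a coiled-coil protein gene found in chromatin complexes, ran from 5.63 CPM in saline replicate 6 to 43.1 in saline replicate 2 and from 38.9 to 60.8 in young serum (1.29 ± 0.45, adjusted p = 0.180). Without saline replicate 6 the difference was 0.73. Gse1 lies inside the deposited span of Galnt2l.

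Esrrg, the oestrogen-related receptor gamma of oxidative muscle, behaved otherwise. It had 18.5, 10.9, 5.47 and 12.6 CPM in saline, 8.26, 18.2, 16.7 and 10.6 with young serum, and 28.5, 18.4 and 22.0 in EV-depleted serum. All EV-depleted libraries lay above all young serum libraries. The difference of EV-depleted serum from saline was 0.98 ± 0.35 (adjusted p = 0.404), or 0.63 without saline replicates 4 and 6, that of young serum 0.21 ± 0.33, which did not reach the unadjusted threshold (adjusted p = 0.720), and that between the sera -0.77 ± 0.35 (young minus EV-depleted, adjusted p = 1). The EV-depleted libraries also had higher slow fibre marker sums, 1052 to 1579 CPM, than 3 of the 4 young serum libraries (165 to 517, and 1315 in replicate 3), and the part of fibre makeup in this difference was not tested. Thrb, a thyroid hormone receptor, differed from saline by 0.40 ± 0.17 with young serum (adjusted p = 0.211). Zbtb20 (0.71 ± 0.34), Tcf4 (0.25 ± 0.20), Mecom (0.22 ± 0.19) and Foxp1 (0.01 ± 0.21), all transcription factors, did not reach it.

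Receptors, adhesion, guidance and matrix genes had medians of 0.19 and 0.16, with 35 and 33 of 44 higher and 10 and 4 of them at the unadjusted threshold. Their medians without the exonic length trend were -0.02 and -0.04. Ldlrad4, an inhibitor of TGF-beta signalling, was the lowest long gene with young serum. Its CPM was 9.75, 11.8, 11.04 and 8.15 in saline, 4.88, 4.499, 8.33 and 5.31 in young serum and 10.98, 11.1 and 7.38 in EV-depleted serum. Young serum replicate 3 lay within the saline range and the other 3 below it. The differences were -0.75 ± 0.20 from saline (adjusted p = 0.180) and -0.69 ± 0.21 from EV-depleted serum (adjusted p = 1), and the first was -0.82 with the exonic length trend removed. Sema3a, a secreted guidance cue, was low throughout, at 0.75 to 1.37 CPM in saline, 1.28 to 3.22 in young serum and 0.67 to 1.92 in EV-depleted serum. It was higher with young serum than in either other group (0.70 ± 0.22, adjusted p = 0.180, and 0.58 ± 0.24, adjusted p = 1), with overlap in both. Plxna4, a receptor for such cues, had 3.38, 2.10, 2.03 and 2.01 CPM in saline, 2.55, 3.38, 2.64 and 1.94 with young serum, and 4.91, 3.40 and 4.89 in EV-depleted serum. The EV-depleted libraries lay above both other groups (0.68 ± 0.20 against saline, adjusted p = 0.370, and -0.58 ± 0.20 for young minus EV-depleted, adjusted p = 1). Cntnap2, a neuronal adhesion gene of 2245 kb, was lowest in EV-depleted replicate 2 (2.79 CPM) and differed by 0.66 ± 0.26 between young and EV-depleted serum (adjusted p = 1), or by 0.35 without that library. Ptprd, a receptor phosphatase gene of 2271 kb, differed by -0.06 ± 0.36 between young serum and saline, with 8.51 CPM in saline replicate 4 and 1.81 to 2.64 in the others.

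Among 22 regulators of small GTPases, 13 and 15 were higher with the sera (medians 0.26 and 0.18), and 4 (18.2%) and 2 (9.09%) passed the unadjusted threshold. With the exonic length trend removed, 0 were higher and 2 lower at that threshold with each serum. Arhgap24, an activator of GTP hydrolysis by Rac, had 12.9, 9.75, 13.9 and 12.6 CPM in saline, 9.45, 9.03, 13.7 and 7.77 with young serum and 19.4, 17.1 and 15.4 in EV-depleted serum. The EV-depleted libraries lay above all others. The differences were 0.46 ± 0.19 from saline (adjusted p = 0.404) and -0.76 ± 0.19 for young minus EV-depleted serum (adjusted p = 1), with the smallest unadjusted p among long genes in that comparison.

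Enzymes of metabolism and glycosylation had the medians nearest 0 among the coding groups. With young serum 12 of 26 were higher (median -0.05, 3 at the unadjusted threshold, 11.5%), and with EV-depleted serum 16 (median 0.05, 4 at that threshold, 15.4%). Removing the trend on exonic length gave medians of -0.19 and 0.00. Their exonic length was short, with a median of 6.12 kb. Galnt18, which adds the first sugar of mucin-type glycans, had 3.68, 4.496, 6.22 and 4.55 CPM in saline and 3.36, 3.73, 3.60 and 3.04 in young serum (-0.36 ± 0.16, adjusted p = 0.216), a difference of -0.20 without saline replicates 4 and 6. B3galt1, a galactosyltransferase, had 2.12, 2.55, 2.16 and 1.41 CPM in young serum and 3.30, 2.93 and 5.47 in EV-depleted serum, without overlap (-0.66 ± 0.26, adjusted p = 1). Cmss1, with 1.997 kb of exon, was not assigned to this group. It had 21.7, 24.4, 18.8 and 45.5 CPM in saline, the last in replicate 6, and 16.2, 17.7, 18.7 and 16.1 in young serum (-0.58 ± 0.22, adjusted p = 0.188). Without saline replicate 6 the difference was -0.31. It shares its span with Filip1l (mean 30.2 CPM), so reads of the 2 genes may not be separated.

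Of 9 genes for RNA binding and modification, 8 were higher with young serum (median 0.10, 2 at the unadjusted threshold). With the exonic length trend removed, the median was -0.20, with 1 higher and 2 lower at that threshold. Among them Msi2, an RNA-binding regulator of translation, differed by 0.42 ± 0.15 (adjusted p = 0.182) and Rbfox1, a splicing factor of muscle and neurons, by 0.59 ± 0.22 (adjusted p = 0.185), whereas Fto, an RNA demethylase, differed by 0.15 ± 0.10 and did not reach the unadjusted threshold (adjusted p = 0.371). Without saline replicate 6 the Rbfox1 difference was 0.37, and without saline replicates 4 and 6 that of Msi2 was 0.26. Rere, a transcriptional corepressor, had 148, 144, 132 and 156 CPM in young serum and 113, 104 and 113 in EV-depleted serum, without overlap, at a difference of 0.39 ± 0.18 that just missed the unadjusted threshold (adjusted p = 1). Vesicle and lipid genes had medians of 0.28 and 0.23 over 14, and genes for ubiquitin, DNA repair, cilia and division 0.11 and 0.10 over 13. The 6 noncoding RNAs had medians of -0.16 and -0.06, and none passed the unadjusted threshold in either comparison with saline.

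Removal of the exonic length trend altered many single differences. Of the 24 named long genes at the unadjusted threshold with young serum, 11 were still at it. Besides Dst, Syne1, Kif26b and Ldlrad4, given above, these were Gse1 (1.04), Pde4d (0.90), Sgcd (0.63), Rbfox1 (0.58), Rora (0.53), Sorbs2 (0.46) and Cacna2d1 (0.39). The other 13 were no longer at it. The structural genes among them were Ank3 at 0.02, Ank2 at 0.18, Xirp2 at 0.33 and Ctnna3 at 0.44. Trdn stood at 0.46 and Slc8a1 at 0.15. The regulators were Msi2 at 0.18, Rere at 0.23, Thrb at 0.25, Prkg1 at 0.32 and Sema3a at 0.38, and the genes lower than in saline were Galnt18 at -0.22 and Cmss1 at -0.38. With EV-depleted serum 8 of 16 were still at the threshold, namely Kif26b, Esrrg, Prkg1, Pde4d, B3galt1, Xirp2, Ank2 and Syne1. Between the sera 8 of 9 were, all but Esrrg.

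The long genes on a hand-made list of fragile-site genes, of which Macrod2 was the longest, had small differences as a group. That list need not hold every fragile-site gene of the set. The 10 long ones had medians of 0.14 and 0.12 with young and EV-depleted serum, and 2 of the 10 reached the unadjusted threshold with each serum, Ctnna3 and Exoc4 with young and Ctnna3 and Auts2 with EV-depleted serum. Macrod2 (1998 kb), an ADP-ribose hydrolase gene, differed from saline by 0.05 ± 0.16 with young serum and Wwox (913 kb) by 0.13 ± 0.16. Ctnna3 (1574 kb), an alpha-catenin of muscle junctions, was at 6.63, 4.62, 2.79 and 7.26 CPM in saline and 8.17, 8.33, 7.88 and 8.10 in young serum, without overlap (0.59 ± 0.25, adjusted p = 0.211). Without saline replicate 4 its difference was 0.37. Auts2 (1106 kb), a chromatin regulator gene, differed by 0.54 ± 0.22 with EV-depleted serum (adjusted p = 0.404), and by 0.33 without saline replicate 6.

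**Figure D5:**
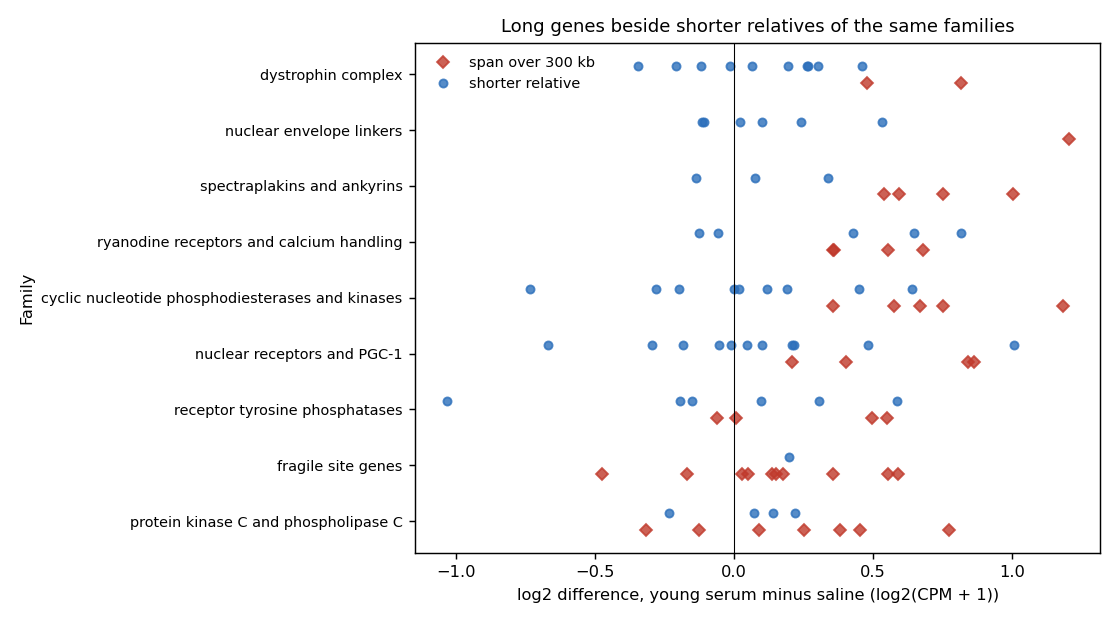
Log2 difference of young serum minus saline (x axis, log2(CPM + 1)) of genes in 9 families (y axis), with long members as diamonds and shorter relatives as circles. Syne1 lies at 1.21 beside relatives between -0.12 and 0.53, and the 4 long spectraplakins and ankyrins lie between 0.54 and 1.004 beside relatives between -0.14 and 0.34.

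Long genes were set beside shorter relatives with related functions, in 10 lists chosen with earlier results of these data known. The 41 long ones had a median of 0.45 with young serum, with 36 higher and 19 at an unadjusted p under 0.05 (46.3%). All 274 long genes had a lower median, 0.22, and a smaller share at that threshold, 27.7%. The 59 shorter relatives had a median of 0.08, with 35 higher and 7 at that threshold (11.9%, against 10.5% of tested genes). With EV-depleted serum the medians were 0.38 and 0.05, with 13 (31.7%) and 6 (10.2%) at that threshold, against 6.49% of tested genes. All 274 long genes had a median of 0.20 and a share of 16.4% there. The median exonic length was 11.1 kb for the 41 long genes and 6.08 kb for their relatives, so these pairs differ in exon as well as span. Syne2, with 26.7 kb of exon on a span of 292.8 kb, differed by 0.10 ± 0.19, against 1.21 for Syne1. In calcium handling, 4 long genes and 5 shorter relatives had medians of 0.46 and 0.43 with young serum and of 0.49 and 0.23 with EV-depleted serum. Within that list the shorter Ryr1, the main release channel of the fibre, with 21.8 kb of exon on a span of 121.8 kb, differed by 0.82 ± 0.23 with young serum (adjusted p = 0.180) and the long Ryr3 by 0.35 ± 0.35. Among nuclear receptors the shorter gene Ppara, a regulator of fatty acid oxidation with 3.84 kb of exon, had the largest difference of its list, 1.006 ± 0.34 (adjusted p = 0.180). Among phosphodiesterases Pde4d, Pde4b and Pde7b, all over 300 kb, differed by 1.18, 0.67 and 0.75, and the long Pde10a by 0.36. The shorter Pde7a differed by 0.45, Pde4a by 0.19, Pde3a by 0.12, Pde4c by 0.02, Pde1a by -0.28 and Pde3b by -0.73, so long and shorter members overlapped.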

How the data were processed

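RNA of 11 tibialis anterior libraries was analysed. Per the submitters' processing notes, FastQC, STAR, DESeq2 and mm10 were used, without versions, roles or order. The CPM values were deposited by the authors per 1000000 over the genes in the table, with an offset of 0.0001 found in the values. The deposited TPM values equal CPM divided by the genomic span of each gene and rescaled (coefficient of variation of the ratio at most 0.000207%), which lowers long genes, so the authors' CPM was used. Depth, from the steps of low CPM values, was 36.4 to 42.3 times 1e+06 reads; only 75.5% to 78.8% of low values were within 0.1 of a whole read (values of 0.01 to 1 CPM), so no count model was fitted.

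Tested genes reached 1 CPM in 3 or more libraries and were analysed as log2(CPM + 1), which understates differences of low genes. A single model of all groups was fitted with limma 3.58.1 (R 4.3.3), with a variance trend, two-sided tests and Benjamini-Hochberg adjustment over all 13187 genes at 0.05. On simulated data for young serum against saline with 200 of 13187 genes changed, the fit was checked before use. The simulated noise was independent between genes, without shifts shared by a library. The check therefore says nothing of p-values or counts under such shifts. Exonic length came from GENCODE M21 (13117 of the tested genes) and promoters from RefSeq.

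The members and gene lists were chosen with earlier results of these data known, and the roles were assigned by hand from gene function after the files were read. Genes named were those with the 6 highest and 6 lowest differences at an unadjusted p under 0.05 per comparison, the 8 with the highest mean CPM, the 5 longest, a set list of muscle and disease genes, shorter relatives, and the 3 genes on either side of the span threshold; predicted genes were counted only. A gene of the set list is not reported here. Alternatives covered pseudocounts, filters, scaling, trends, weights, group choice, the replicate block, span limits and leaving out each library. Figures used matplotlib 3.10.9 in Python 3.11.15.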

Additional observations from a re-analysis of the deposited data

Results flagged for a closer look

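In groups of 4 libraries, a library was singled out when its gap to the nearest other library, divided by the range of the group, exceeded Dixon's critical value of 0.829, and this held for 4 of 92 groups examined, where chance gives about 1 in 20. Ank2 was highest in saline replicate 2, at 42.4 CPM against 19.5 to 23.3 in the other saline libraries. Plxna4 was also highest there, at 3.38 CPM against 2.01 to 2.10. Cacna2d1 was lowest in young serum replicate 3, at 328.8 CPM against 382.9 to 391.8. Ptprd was highest in saline replicate 4, at 8.51 CPM against 1.81 to 2.64. Groups of 3 libraries were not examined.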

How the results depend on the processing

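For the 49 pairs of a named long gene and a comparison with an unadjusted p under 0.05, all 888 settings kept the direction. The pairs were picked by that p in the main fit, and most settings refit the same libraries. A kept sign was therefore likely in advance and says little of size. Ank3 with young serum went from 0.59 to 0.02 with the exonic length trend removed. The median of long genes, 0.22 for young serum against saline, was -0.0438 with the span trend removed per library and -0.0146 with the exonic length trend removed. For EV-depleted serum it was 0.20 and, with the span trend removed, -0.0260. Removing the span trend moves the median of genes defined by span towards 0 by construction. The counts higher at an unadjusted p under 0.05 were 76 and 45 for these comparisons and 3 for young against EV-depleted serum. With the span trend removed they were 35, 24 and 5, beside 11.8%, 7.56% and 1.25% of tested genes. In that fit 35, 23 and 9 long genes were lower, with no share of tested genes given to set beside them. With the exonic length trend removed the first 2 counts of higher genes were 42 and 28, beside 11.2% and 7.70% of tested genes. The gap in median between long genes and genes under 10 kb, young against EV-depleted serum, was then -0.0060. With array weights the counts higher were 151, 129 and 25 (55.1%, 47.1% and 9.12%), beside 25.3%, 21.1% and 6.00% of tested genes. In that fit 117, 57 and 2 long genes passed an adjusted p of 0.05, as did 3441, 1794 and 24 of 13187 tested genes. However, it gave saline replicate 3 a weight of 3.32 and EV-depleted replicate 2 one of 4.19. Fits of only the groups compared gave 25 and 6 for the last 2 comparisons, beside 3.38% and 1.41% of tested genes higher. Median-ratio scaling gave 6 for the last, beside 1.05% of tested genes. At a span over 200 kb the counts were 143 and 87 of 563 genes (25.4% and 15.5%, against 10.5% and 6.49% of tested genes). Over 500 kb they were 25, 17 and 1 of 93 genes (26.9%, 18.3% and 1.08%, against 10.5%, 6.49% and 0.478%). With the GENCODE span they were 75, 44 and 3 of 271 genes, beside 10.5%, 6.49% and 0.478% of tested genes. The medians against saline were then 0.22 and 0.20. With the replicate block the first was 48 and the last 9, beside 6.35% and 1.01% of tested genes. Deviations of same-number libraries correlated at -0.277 to 0.2998, over 0.1 in 4 of 9 pairs, so a pairing by number was not shown. Without saline replicates 4 and 6 the first was 49, beside 6.33% of tested genes. Without Xirp2 the young serum share of CPM was 0.725%. Leaving out each library in turn gave 49 (without saline replicate 3) to 105 (without saline replicate 4) for young serum against saline. Of tested genes, 6.91% and 16.0% were higher in these 2 fits. For EV-depleted serum the range was 16 (without EV-depleted replicate 4) to 76 (without EV-depleted replicate 3), beside 2.38% and 11.2% of tested genes. For young against EV-depleted serum it was 0 to 12 (without EV-depleted replicate 4), beside 1.55% of tested genes at 12. The numbers past an adjusted p of 0.05 were then 0 to 9 and 0 to 1 against saline, both highest without saline replicate 2. In those fits 253 and 5 of 13164 tested genes passed. The median between the sera ran from -0.10 (without EV-depleted replicate 3) to 0.20, and the gap to genes under 10 kb from -0.0612 (without EV-depleted replicate 3) to 0.25. The exonic length trend, the exclusion of saline replicates 4 and 6, the GENCODE span and the exclusion of Xirp2 were chosen after seeing the data. Where not stated, the cause of a change was not tested.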
